A study of Catharanthus roseus with 15 samples.

Results

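The 4 nuclear genes described here encode chloroplast proteins of *Catharanthus roseus*, measured in leaves treated with 2 hormones. They are CRO_000002 (match to CLPR1 of Arabidopsis), CRO_000529 (CLPP5), CRO_000080 (HCF107) and CRO_000056 (CH1), and make up 4 of the 33829 genes of the deposited count table. They were chosen by name from the gene annotation when earlier results of these data were known. Their p-values are therefore not those of genes picked in advance. All 4 passed the filter on low counts, which 18008 genes (53.2%) passed. The Arabidopsis names are similarity matches, and the functions given below are those of the Arabidopsis proteins.

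The samples were 15 leaf RNA libraries of seedlings of the cultivar Vitae Rose Red, with 3 libraries in each of 5 groups. The control group was sampled at 0 h, and the other groups 3 h or 24 h after the leaves were sprayed with ethephon (ETH), which releases ethylene inside the plant, or with methyl jasmonate (MJ), each at 100 µM. No transgene or mutant is named for these samples, and the seedlings were 4 weeks old by the paper and 2 weeks old by the sample labels. A water spray is described as the mock treatment, but no library of water-sprayed leaves at 3 h or 24 h was analysed here, so the hormone, the act of spraying and the time of day cannot be told apart in any comparison with 0 h. The paper calls the replicates biological without giving the number of plants behind each library, and p-values measure the spread between these libraries.

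The chloroplast contains its own protein-degrading machine, the Clp protease, whose core in the stroma is built of rings of ClpP and ClpR subunits. ClpP subunits carry the serine-type active site, whereas ClpR subunits lack it and serve in the structure of the core. CLPP5 encodes an active subunit and CLPR1 an inactive one, and both are made in the cytosol and imported. HCF107 encodes an RNA-binding protein of the chloroplast that protects and helps translate the messenger of a small photosystem II subunit, and its loss in Arabidopsis gives high chlorophyll fluorescence. CH1 encodes chlorophyllide a oxygenase, the enzyme that makes chlorophyll b, the pigment of the light-harvesting antenna.

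The libraries held 23710688 to 31168281 counts, and levels are CPM after TMM scaling, in which counts are divided by a scaled library size, and the scaling factors lay between 0.89 and 1.14. All 4 genes were deeply covered in every library. CLPR1 had 5640 to 10330 counts, CLPP5 2730 to 5840, HCF107 2166 to 5150 and CH1 1795 to 9239. Counting error was therefore at most 2.36% of a count, far below the spread between replicates. Levels are not compared between genes, since no transcript lengths were used. In the annotation used by the study, CLPR1 lies on scaffold cro_scaffold_3057031 from base 2367 to 7468 on the plus strand, and CLPP5 on cro_scaffold_2953314 from base 1 to 3633 on the minus strand. HCF107 lies on cro_scaffold_3054416 from base 3467 to 7107 on the minus strand, and CH1 on cro_scaffold_3063426 from base 24185 to 29117 on the minus strand. The CLPP5 model begins at the first base of its scaffold and may be incomplete.

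The tissue label was checked against 3 markers of green tissue, PSAF, CH1 and CRR7, and all 3 were present in every library. CH1 is itself among the genes chosen for description here, and PSAF and CRR7 are in the photosynthesis list given below. The check therefore speaks only to the presence of green tissue and is not independent of the results for these genes. PSAF, a subunit of photosystem I, lay between 1144 and 5774 CPM. The 6 genes of dividing tissue summed to 33.3 to 43.2 CPM over all groups, and the meristem gene STM was at 0 in all libraries of the 0 h and ETH groups and at most 0.142 CPM in the MJ groups. The epidermal marker pair summed to 96.0 to 194 CPM at 0 h, 41.6 to 233 at ETH 3 h, 67.1 to 139 at ETH 24 h, 70.9 to 427 at MJ 3 h and 42.1 to 85.9 at MJ 24 h, and the laticifer or idioblast marker ranged from 42.2 to 422 CPM over all libraries. The part of these differences in the results below was not tested. T16H1/2, T16OMT and D4H are genes of the vindoline pathway, and the paper places them in a module that responded to both hormones. Their levels therefore cannot tell a hormone response from a difference in cell types. In leaf tissue, fewer green cells and less RNA of a gene per cell cannot be told apart.

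**Figure D1:**
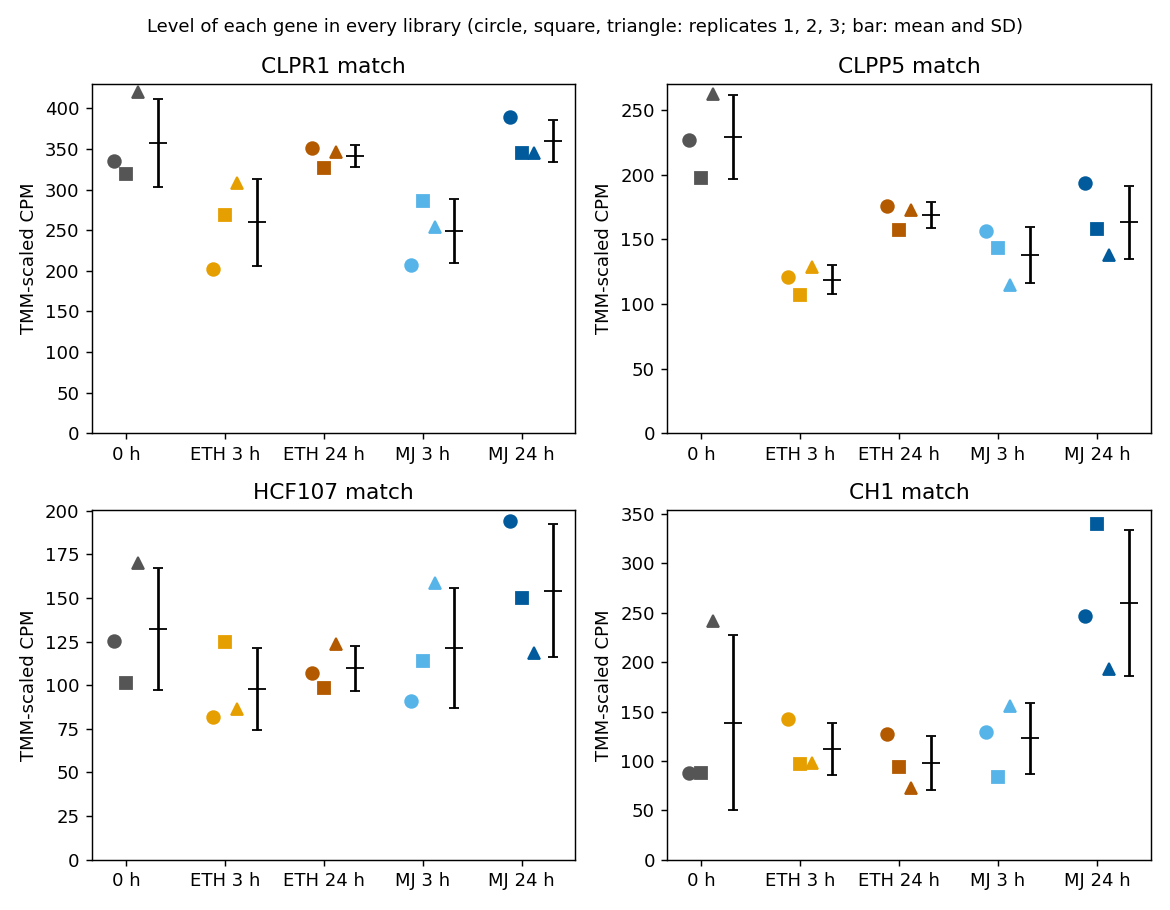
TMM-scaled CPM (y axis, from 0) of the CLPR1, CLPP5, HCF107 and CH1 matches in the 15 libraries, by group (x axis), with circles, squares and triangles for replicates 1, 2 and 3 and bars for the mean and SD of 3 libraries. The CLPP5 libraries of all 4 treated groups sit below those of 0 h, and CH1 at 0 h has 1 library at 241 CPM and the other 2 near 87 CPM.

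CLPP5, the active Clp subunit, was the only gene of the 4 that edgeR called, and it fell after both hormones at 3 h. Its level at 0 h was 227, 197 and 262 CPM in replicates 1 to 3. At ETH 3 h it was 121, 107 and 129 CPM, and at MJ 3 h 156, 143 and 114 CPM. No 3 h library reached the lowest library of 0 h. The mean went from 229 ± 32.6 CPM (SD, n = 3) at 0 h to 119 ± 10.96 at ETH 3 h and 138 ± 21.5 at MJ 3 h.

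The log2 fold change of CLPP5 against 0 h was -0.95 at ETH 3 h (SE 0.159, edgeR adjusted p = 0.00359) and -0.73 at MJ 3 h (SE 0.158, edgeR adjusted p = 0.00534). Calls needed an adjusted p under 0.05 together with more than a 1.5-fold change in either direction, and CLPP5 was the 1 gene of the 4 called at each of these times. Over all tested genes, 11.9% were called at ETH 3 h and 20.8% at MJ 3 h, and 7.14% and 11.3% were called as lower. With both 3 h groups set together against 0 h, where 17.6% of genes were called, the change was -0.84 (SE 0.133, edgeR adjusted p = 0.0011). The comparisons share the 0 h libraries. Both calls held without any single library, with adjusted p-values of 0.0037 to 0.0199 for ETH and 0.00483 to 0.0277 for MJ in edgeR. The call at MJ 3 h was lost when the fit held only the groups compared (edgeR adjusted p = 0.0514, against a range of 9.33e-05 to 0.353 over all alternatives), and neither change exceeded a fold of 2.

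At 24 h the CLPP5 level lay between those of 3 h and 0 h. It was 176, 157 and 173 CPM at ETH 24 h and 193, 158 and 138 CPM at MJ 24 h. All of these libraries remained below the lowest 0 h library, by a margin of a few CPM for the highest MJ library. Groups that lay apart in this downward direction were found for 16.9% of all tested genes at ETH 3 h, 18.5% at MJ 3 h, 17.1% at ETH 24 h and 10.9% at MJ 24 h. The log2 fold change against 0 h was -0.44 at ETH 24 h (SE 0.158, edgeR adjusted p = 0.165) and -0.49 at MJ 24 h (SE 0.158, edgeR adjusted p = 0.277), which was no call.

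Between the times, CLPP5 was 0.50 higher on the log2 scale at ETH 24 h than at ETH 3 h (SE 0.158, edgeR adjusted p = 0.0817), with no overlap between the libraries of the 2 groups, as for 16.3% of all tested genes, and 3.62% were called. From MJ 3 h to MJ 24 h the change was 0.24 (SE 0.158, edgeR adjusted p = 0.292), and the libraries overlapped. With both hormones together, 24 h exceeded 3 h by 0.37 (SE 0.111, edgeR adjusted p = 0.0275), below the fold needed for a call. The hormones themselves were not distinguished for CLPP5, with ETH minus MJ at -0.22 (SE 0.158, edgeR adjusted p = 0.492) at 3 h and 0.05 (SE 0.158, edgeR adjusted p = 0.935) at 24 h.

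CLPR1, the subunit without an active site, also had its lowest means at 3 h, without a call, and its libraries at 24 h overlapped with those of 0 h. Its level at 0 h was 335, 319 and 419 CPM. At 3 h it was 202, 269 and 308 CPM after ETH and 207, 286 and 253 CPM after MJ. At 24 h it was 351, 326 and 346 CPM after ETH and 390, 345 and 344 CPM after MJ. Both 3 h groups lay below all libraries of 0 h and of their own 24 h group, and the 24 h groups overlapped with 0 h. Of all tested genes, 16.9% lay wholly below 0 h at ETH 3 h and 18.5% did so at MJ 3 h. Wholly above their 3 h libraries lay 16.3% at ETH 24 h and 16.6% at MJ 24 h.

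The mean of CLPR1 was 358 ± 54.1 CPM (SD, n = 3) at 0 h, 260 ± 53.8 at ETH 3 h, 249 ± 39.8 at MJ 3 h, 341 ± 13.2 at ETH 24 h and 360 ± 26.1 at MJ 24 h. The log2 fold change against 0 h was -0.46 at ETH 3 h (SE 0.172, edgeR adjusted p = 0.0864) and -0.52 at MJ 3 h (SE 0.172, edgeR adjusted p = 0.0396). The second passed the p threshold but not the fold, as did both 3 h groups together (-0.49, SE 0.146, edgeR adjusted p = 0.026). From 3 h to 24 h CLPR1 changed by 0.39 after ETH (SE 0.172, edgeR adjusted p = 0.197) and by 0.53 after MJ (SE 0.172, edgeR adjusted p = 0.0449), and by 0.46 with both hormones together (SE 0.122, edgeR adjusted p = 0.0156). All were below the fold, and calls came to 3.62%, 16.4% and 13.8% of all genes. Against 0 h, the changes at 24 h were -0.07 (SE 0.172) for ETH and 0.01 (SE 0.172) for MJ.

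The CLPR1 result at 3 h turned on single libraries. At MJ 3 h it became a call when 0 h replicate 2 was left out (-0.61, edgeR adjusted p = 0.0287) or MJ 3 h replicate 2 (-0.64, edgeR adjusted p = 0.0266), while its adjusted p was above 0.05 without 0 h replicate 1 or 3 or MJ 3 h replicate 1 or 3, and highest at 0.12 in edgeR without 0 h replicate 3. The range over all alternatives was 0.00731 to 0.924.

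The annotated end of CLPR1 lies just before BUB3.2 (CRO_000003, match to a mitotic checkpoint protein), which runs from base 7534 to 13793 on the opposite strand. It is unknown here whether the counting used strand, so reads past the ends of these genes could be counted for either. BUB3.2 had only 11.4 to 41.3 CPM, and it was called as higher at both 3 h times, by 0.78 at ETH 3 h (SE 0.201, edgeR adjusted p = 0.022) and 1.26 at MJ 3 h (SE 0.202, edgeR adjusted p = 0.00103). Its direction was opposite to that of CLPR1.

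The ratio of the counts of the Clp genes within a library needs no scaling between libraries. CLPR1 had 1.48, 1.61 and 1.60 times the counts of CLPP5 at 0 h. The ratio was 1.68, 2.51 and 2.39 at ETH 3 h, 1.32, 2.00 and 2.22 at MJ 3 h, 2.00, 2.08 and 2.00 at ETH 24 h, and 2.02, 2.18 and 2.50 at MJ 24 h. All treated libraries except MJ 3 h replicate 1 lay above the 0 h libraries. The first replicate was the lowest in both 3 h groups, and CLPR1 itself was also lowest there. The mean ratio was 1.56 ± 0.0753 (SD, n = 3) at 0 h, 2.19 ± 0.453 at ETH 3 h, 1.85 ± 0.465 at MJ 3 h, 2.02 ± 0.0444 at ETH 24 h and 2.23 ± 0.244 at MJ 24 h. The ratio is a description without a test, and no share over all gene pairs was computed. At MJ 3 h its libraries lay on both sides of those of 0 h. Where a ratio differs, it says only that the genes did not change equally.

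**Figure D2:**
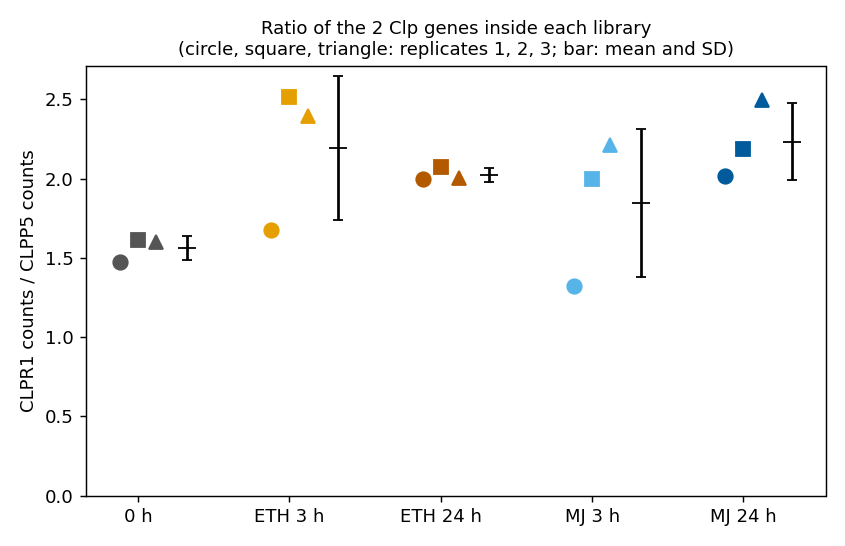
Counts of CLPR1 divided by counts of CLPP5 (y axis, from 0) in each of the 15 libraries by group (x axis), with circles, squares and triangles for replicates 1, 2 and 3 and bars for the mean and SD of 3 libraries. The 0 h libraries sit between 1.48 and 1.61, and MJ 3 h replicate 1 at 1.32 is the only treated library below them.

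HCF107, the RNA-binding factor, showed no change beyond the spread between replicates. Its level at 0 h was 126, 101 and 170 CPM. After ETH it was 81.8, 125 and 86.5 CPM at 3 h and 107, 98.3 and 124 CPM at 24 h. After MJ it was 91.0, 114 and 158 CPM at 3 h and 194, 150 and 118 CPM at 24 h. The libraries of every pair of groups compared overlapped. The lowest mean was 97.6 ± 23.5 CPM (SD, n = 3) at ETH 3 h and the highest 154 ± 38.2 at MJ 24 h.

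The log2 fold change of HCF107 against 0 h was -0.44 at ETH 3 h (SE 0.26, edgeR adjusted p = 0.271), -0.12 at MJ 3 h (SE 0.26, edgeR adjusted p = 0.756), -0.27 at ETH 24 h (SE 0.26, edgeR adjusted p = 0.613) and 0.22 at MJ 24 h (SE 0.26, edgeR adjusted p = 0.734). Its within-group SD was 0.33 on the log2 scale, larger than for 67.6% of tested genes. A change of the size estimated for CLPR1 could therefore have been missed. At ETH 3 h the estimates were alike, -0.44 for HCF107 and -0.46 for CLPR1, and neither was called. At 24 h HCF107 was 0.49 lower after ETH than after MJ on the log2 scale (-0.49, SE 0.26, edgeR adjusted p = 0.419), which was no call.

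CH1, the enzyme of chlorophyll b synthesis, was highest at MJ 24 h, its libraries varied widely within groups, and edgeR called no comparison. Its level at 0 h was 87.4, 87.5 and 241 CPM. After ETH it was 143, 96.5 and 97.9 CPM at 3 h and 127, 93.5 and 72.6 CPM at 24 h. It was 129, 84.2 and 155 CPM at MJ 3 h and 246, 340 and 193 CPM at MJ 24 h. All 3 libraries of MJ 24 h exceeded those of MJ 3 h and of ETH 24 h, whereas 0 h replicate 3 reached into their range. Of all tested genes, 16.6% lay wholly higher at 24 h than at 3 h after MJ, and 13.6% wholly lower after ETH than after MJ at 24 h.

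The mean of CH1 was 139 ± 88.9 CPM (SD, n = 3) at 0 h, with a coefficient of variation of 64.1%, and 260 ± 74.1 at MJ 24 h. Its within-group SD of 0.52 on the log2 scale was larger than that of 83.8% of tested genes. The log2 fold change at MJ 24 h was 0.90 against 0 h (SE 0.401, edgeR adjusted p = 0.401) and 1.08 against MJ 3 h (SE 0.402, edgeR adjusted p = 0.0723). ETH 24 h minus MJ 24 h gave -1.41 (SE 0.405, edgeR adjusted p = 0.124), and the ETH change from 3 h to 24 h minus the MJ change, the difference between the time courses, gave -1.28 (SE 0.565, edgeR adjusted p = 0.273). The background of calls was 0.0278% for MJ 24 h against 0 h, 16.4% for MJ 24 h against MJ 3 h, 1.04% between the hormones at 24 h and 3.3% for the difference between the time courses.

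Other tools called CH1 in some of these comparisons. DESeq2, which called 21.2% and 4.46% of all genes in the following comparisons, called it at MJ 24 h against MJ 3 h (1.08, adjusted p = 0.0338, range over all alternatives 0.0338 to 0.318) and at ETH 24 h against MJ 24 h (-1.42, adjusted p = 0.0183, range 0.00604 to 0.558). Limma voom with library quality weights, which called 9.18% and 5.06% of all genes, called it at ETH 24 h against MJ 24 h (-1.67, adjusted p = 0.00604) and at MJ 24 h against 0 h (1.64, adjusted p = 0.00791, range 0.00791 to 1). The last value was 1.57 in edgeR without 0 h replicate 3 (adjusted p = 0.168). The other changes of CH1 against 0 h were -0.30 (SE 0.398) at ETH 3 h, -0.51 (SE 0.399) at ETH 24 h and -0.18 (SE 0.398) at MJ 3 h, and without that library they became 0.36, 0.14 and 0.48, none of them a call.

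**Figure D3:**
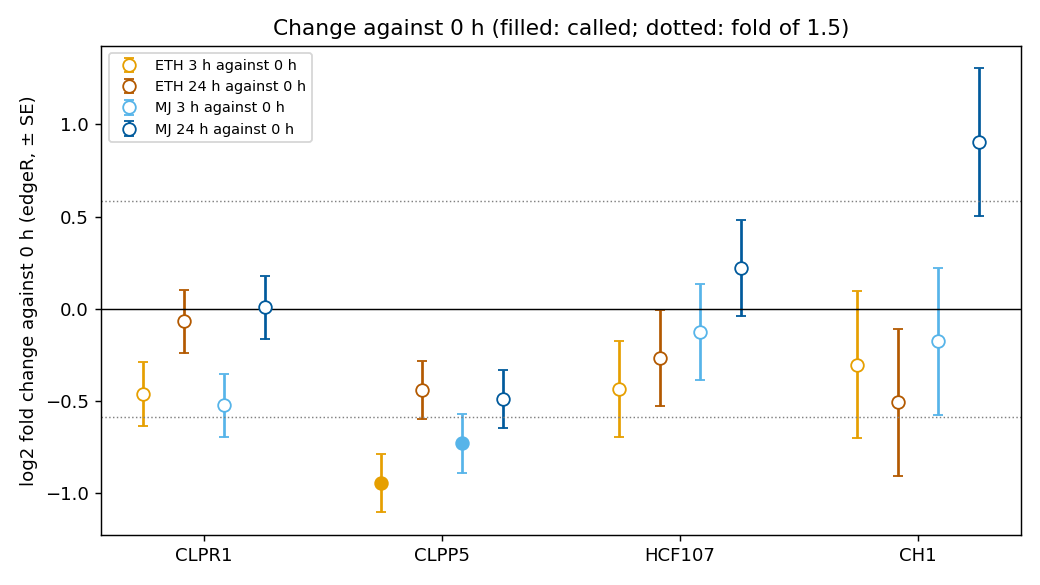
Log2 fold change against 0 h with its SE from edgeR (y axis) for the 4 genes (x axis) in the 4 treated groups (colours), filled where called, with dotted lines at a fold of 1.5 in either direction. CLPP5 at ETH 3 h (-0.95) and at MJ 3 h (-0.73) are the 2 filled points, and CH1 at MJ 24 h (0.90) lies outside the dotted lines without a call.

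A joint test of the 4 treated groups against 0 h called CLPP5 (edgeR adjusted p = 0.00609). CLPR1 (adjusted p = 0.0546), CH1 (adjusted p = 0.0639) and HCF107 (edgeR adjusted p = 0.271) did not pass. The same test passed for 5796 of the tested genes (32.2%). At 24 h edgeR called 0 of the 4 genes in either hormone against 0 h, where 2.18% of genes were called after ETH (393 genes, and 83 to 182 with any 1 library left out) and 0.0278% after MJ. At an unadjusted p under 0.05 the counts were 1 after ETH, against 18.7% of all genes, and 2 after MJ, against 12.1%. DESeq2 called 0 in both comparisons, and limma voom 0 after ETH and 1 after MJ, where it called 5.06% of all genes.

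Between the hormones at 3 h edgeR also called 0 of the 4 genes, against 6.89% of all genes, with 0 at an unadjusted p under 0.05, which 21.8% of all genes had, and 0 by DESeq2 or limma voom. The difference of ETH minus MJ was 0.06 (SE 0.172) for CLPR1, -0.22 (SE 0.158) for CLPP5, -0.31 (SE 0.26) for HCF107 and -0.13 (SE 0.398) for CH1. None of the 4 was called by edgeR for the difference between the time courses, where 3.3% of genes were called. There CH1 alone passed at an unadjusted 0.05, as did 16.9% of all genes, and 0 of the 4 were called by DESeq2 or by limma voom.

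The order of the group means differed between the genes. CLPP5 was highest at 0 h, followed by ETH 24 h, MJ 24 h, MJ 3 h and ETH 3 h. CLPR1 ran from MJ 24 h over 0 h, ETH 24 h and ETH 3 h to MJ 3 h. HCF107 and CH1 were both highest at MJ 24 h, with 0 h and MJ 3 h next, and lowest at ETH 3 h and ETH 24 h, respectively. No neighbours in these orders that were compared differed in a call of edgeR. The called differences of CLPP5 lie between 0 h and the 3 h groups, which are not neighbours.

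The third library of 0 h was the highest of its group for all 4 genes and for the 11 further chloroplast genes described below, whereas it was the highest for 43.3% of all tested genes. Its values were 419 CPM for CLPR1, 262 for CLPP5, 170 for HCF107 and 241 for CH1. Without it, CLPP5 was still called, at -0.85 for ETH 3 h (edgeR adjusted p = 0.0199) and -0.63 for MJ 3 h (edgeR adjusted p = 0.0277). CLPR1 then had -0.35 and -0.41 at these times.

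A list of 5 other nuclear genes of photosynthesis was also lower at 3 h than at 0 h. The 5 were picked by name from 1022 readable annotation lines and do not stand for all photosynthesis genes. Of them, edgeR called 3 as lower at ETH 3 h and 4 at MJ 3 h, against 7.14% and 11.3% of all tested genes, and 0 as higher. With both 3 h groups together all 5 were called as lower, where 10.6% of all genes were. That count ran from 2 to 5 when 1 library at a time was left out. The median log2 fold change of the 5 was -0.77 at ETH 3 h and -1.13 at MJ 3 h, and that of all tested genes 0.05 at both. The list was chosen with results of these data known, and PSAF and CRR7 are also markers of green tissue.

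The largest change among them was in AT1G49380 (CRO_000823), a match to the cytochrome c biogenesis family. It fell by 1.19 on the log2 scale at ETH 3 h (SE 0.211, edgeR adjusted p = 0.00437) and by 1.67 at MJ 3 h (SE 0.214, edgeR adjusted p = 3.32e-04), from 40.9 to 57.6 CPM at 0 h to 19.9 to 23.4 and 13.7 to 18.4 CPM. PSAF lay at 3259, 2726 and 5774 CPM at 0 h and at 2230, 1144 and 2015 CPM at MJ 3 h, where it was called (-1.13, SE 0.363, edgeR adjusted p = 0.0365). At ETH 3 h, PSAF had -0.93 (SE 0.362, edgeR adjusted p = 0.0977). ALB4, which helps insert proteins into the thylakoid membrane, was called at ETH 3 h (-0.69, SE 0.158, edgeR adjusted p = 0.0128) but not at MJ 3 h (-0.54, SE 0.157, below the fold).

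CRR7, a factor of the chloroplast NDH complex, lay at 62.4 to 98.0 CPM at 0 h, 43.3 to 50.4 CPM at ETH 3 h and 27.0 to 39.4 CPM at MJ 3 h, and it was called at MJ 3 h (-1.28, SE 0.249, edgeR adjusted p = 0.00298) and not at ETH 3 h (-0.77, SE 0.246, edgeR adjusted p = 0.0509). The difference between the hormones at 3 h was called for 0 of the 5 genes by edgeR, DESeq2 or limma voom. At an unadjusted p under 0.05 the count was 1, against 21.8% of all genes. NPQ7 was called at both, with -0.65 at ETH 3 h (SE 0.179, edgeR adjusted p = 0.0294) and -0.69 at MJ 3 h (SE 0.179, edgeR adjusted p = 0.0135). At 24 h, edgeR called 0 of the 5 against 0 h after either hormone. At an unadjusted p under 0.05 the counts were 2 after ETH, against 18.7% of all genes, and 1 after MJ, against 12.1%. DESeq2 called 1 and 0, and limma voom 1 and 1. Limma voom called 5.06% of all genes at MJ 24 h. At ETH 24 h both tools called more of all genes than edgeR, with the counts given at the end. From MJ 3 h to MJ 24 h, 2 of the 5 were called as higher, against 9% of all genes. Without 0 h replicate 3 the calls at 3 h came to 1 for ETH and 2 for MJ. Calls at MJ 3 h also fell to 2 without MJ 3 h replicate 3. Under a library left out in turn, AT1G49380 kept both of its calls and CRR7 its call at MJ 3 h, while ALB4 lost its call without 0 h replicate 3 (-0.52). PSAF lost its call without 0 h replicate 1 or 3 or MJ 3 h replicate 2 or 3, with an edgeR adjusted p of up to 0.169. NPQ7 lost its call at ETH 3 h without 0 h replicate 1 or 3 or ETH 3 h replicate 2 or 3 (edgeR adjusted p of up to 0.144), and at MJ 3 h without 0 h replicate 3 or MJ 3 h replicate 2 or 3 (up to 0.0727).

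AT5G64580 and AT3G02450 are FtsH-like matches of the chloroplast. Neither was called at 3 h. AT5G64580 had -0.41 at ETH 3 h (SE 0.139, edgeR adjusted p = 0.0631) and -0.43 at MJ 3 h (SE 0.139, edgeR adjusted p = 0.0363), and AT3G02450 had -0.45 (SE 0.161, edgeR adjusted p = 0.077) and -0.50 (SE 0.161, edgeR adjusted p = 0.0355). Both changes at MJ 3 h were below the fold for a call, as for CLPR1. DESeq2 called 0 of the 2 at either time. Limma voom called 1 at MJ 3 h, and its share of calls over all genes there is not given here. Both genes had an unadjusted p under 0.05 at both times. Such a p was found for 32% of all tested genes at ETH 3 h and 40.3% at MJ 3 h.

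Of 4 genes of plastid gene expression and division, edgeR called 1 as lower at ETH 3 h and 2 at MJ 3 h, where 7.14% and 11.3% of all tested genes were. AT3G12930, a match to the Iojap-related proteins, was called at both (-0.95, SE 0.274, adjusted p = 0.0355 and -1.12, SE 0.275, edgeR adjusted p = 0.0101). AT4G17560, a match to ribosomal protein L19, was called at MJ 3 h (-0.89, SE 0.309, edgeR adjusted p = 0.0485). The call of AT4G17560 was lost without 0 h replicate 1 or 3 or MJ 3 h replicate 2 or 3 (edgeR adjusted p of up to 0.212), and that of AT3G12930 at ETH 3 h without any 0 h library or without ETH 3 h replicate 2 or 3 (up to 0.134). PTAC2, of the plastid transcription complex, and PDV2, of the division ring, were not called. Of 5 matches to genes encoded in the plastid, 1 passed the filter on low counts, and it was not called. A further 52 genes were taken because their match text held a word such as chloroplast, plastid, thylakoid or stroma. The word alone does not place the protein in the chloroplast. Of the 48 of these genes that were tested, 1 was called as higher and 6 as lower at ETH 3 h, and 6 as higher and 5 as lower at MJ 3 h, with medians of -0.09 at both times. Over all tested genes, 4.76% were called as higher and 7.14% as lower at ETH 3 h, and 9.55% as higher and 11.3% as lower at MJ 3 h, so these counts of the 48 were near the background.

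**Figure D4:**
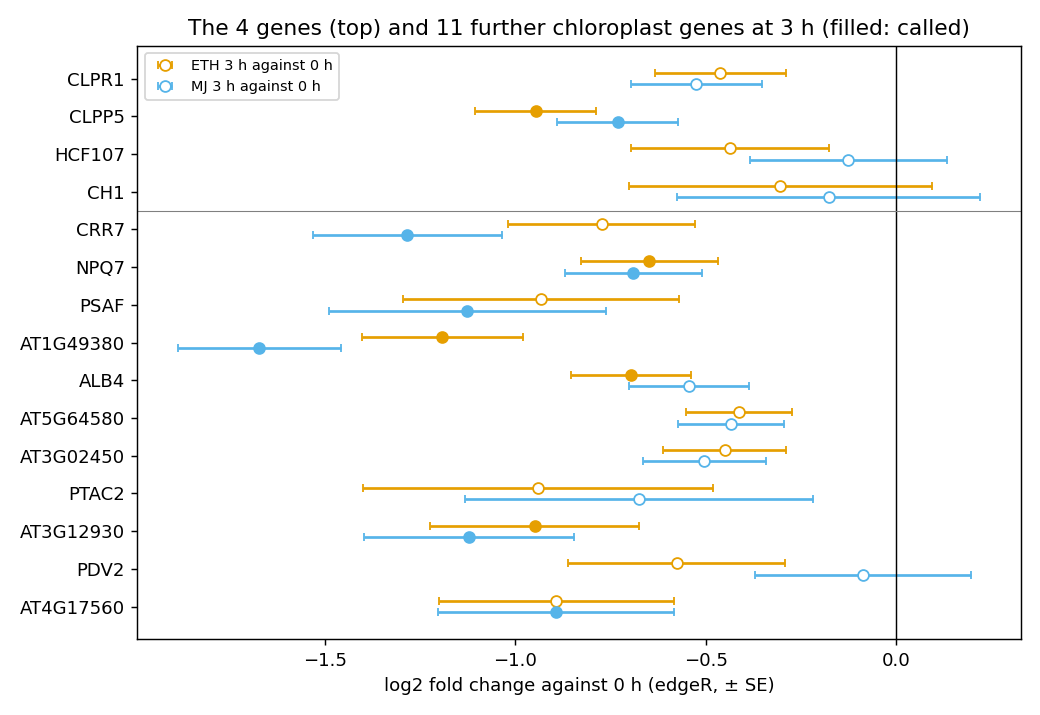
Log2 fold change against 0 h with its SE from edgeR (x axis) at ETH 3 h and MJ 3 h (colours) for the 4 genes above the line and for 5 photosynthesis, 2 FtsH-like and 4 plastid gene expression or division matches below it (y axis), filled where called. All points lie below 0, from -0.09 for PDV2 at MJ 3 h to -1.67 for AT1G49380 at MJ 3 h.

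The pattern of each gene was compared with 442 tested genes that have an Arabidopsis match, by Pearson's r of log2(CPM + 1) over the 15 libraries. These values are descriptions, and libraries of 1 group share their treatment. CLPR1 was most like HIT3 (r = 0.907), AT2G41980 (0.848) and FMO GS-OX4 (0.843). CLPP5 was most like AT1G29240 (r = 0.903), the receptor-like kinase match ANX2 (0.894) and the FtsH-like match AT3G02450 (0.89). HCF107 was most like AT5G16010 (r = 0.901), the neutral invertase match AT1G56560 (0.865) and AT1G51140 (0.834), and CH1 like AT3G63240 (0.857), GLR2.2 (0.845) and AT1G71810 (0.804). With library totals in place of TMM, 0 of the 3 genes named for CLPR1 and 0 of the 3 for CLPP5 were still among the 3 most similar, whereas all 3 were for HCF107 and for CH1. By Spearman's rho, AT1G51140 left the 3 of HCF107 and AT1G71810 (rho = 0.55) the 3 of CH1. AT2G41980 left those of CLPR1, and AT1G29240 and AT3G02450 those of CLPP5. ANX2 lies on the same scaffold as HCF107, from base 19333 to 28634.

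Among the 4 genes, r was 0.662 for CLPR1 and CLPP5, 0.583 for CLPR1 and HCF107 and 0.577 for HCF107 and CH1. With library totals these became 0.600, 0.332 and 0.466, and when group means were removed from the TMM-scaled values 0.273, 0.573 and 0.359. CLPP5 and CH1 had r = 0.144 over all libraries and 0.294 with group means removed. The order of the pairs thus depended on the scaling and on the group means.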

How the data were processed

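RNA of 15 *C. roseus* leaf samples was sequenced. After trimming of adaptors and poor reads, the authors aligned with HISAT2 (2.0.4, from the submitters' processing notes), counted with HTSeq and deposited raw counts per gene. Of 2 genome sources named, the one used, and the HTSeq strand setting, are not given in the sources used here. The extraction text of the labels names an animal tissue and the tissue label leaf. The table has 33829 genes, 0 rows without a gene and 0 columns of unknown samples. Groups and replicate numbers came from sample titles.

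Counts were tested in edgeR 4.0.16 (R 4.3.3) with filterByExpr, TMM and a quasi-likelihood model of 5 group means, without a replicate term. Benjamini-Hochberg adjustment covered 18008 genes. The SE is the log2 fold change divided by the square root of F. The supplement sets the same fold and threshold for EBSeq, which was not run. The script was tested on simulated data. Fits with DESeq2 1.42.0 and limma 3.58.1 voom, other scalings (library totals, upper quartile), filters (none, at least 10 counts), folds (none, above 2, a test against 1.5), only the groups compared, a replicate term and left-out libraries were alternatives. Names and positions came from 1022 readable annotation lines, of which 539 had an Arabidopsis match. No ID matched the RefSeq table of 37298 genes, and no sequences were used.

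The members, lists and rules were chosen with earlier results of these data known. By the rule, the 4 members and, for each, the 3 most similar patterns are named, and list genes called in a pairwise comparison may be. The called genes among the 52 genes taken by a word in their match text are given by count only. The 2 FtsH-like matches, PTAC2 and PDV2 and the neighbour BUB3.2 were named beyond this rule, after their values were seen. Python 3.11.15, numpy 2.4.6, pandas 2.3.3 and matplotlib 3.10.9 were used.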

Additional observations from a re-analysis of the deposited data

How the results depend on the processing

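Of the changes of the 4 genes under the alternatives, 875 kept direction and call, 14 gained a call, 7 lost one and 40 changed sign, all of them values without a call. A fold above 2 or a test against a fold of 1.5 called 0 of the 4 genes in place of 1 at ETH 3 h, MJ 3 h and both 3 h groups together, and only the groups compared 0 at MJ 3 h. No fold threshold called 2 at MJ 3 h, 2 in both 3 h groups together, 1 at MJ 24 h against MJ 3 h and 2 at 24 h against 3 h. In these comparisons 28%, 27.7%, 22.1% and 26.9% of all tested genes were called without a fold threshold. DESeq2 called 1 at MJ 24 h against MJ 3 h and 1 at ETH 24 h against MJ 24 h. Limma voom called 1 at MJ 24 h against 0 h, 1 at ETH 24 h against MJ 24 h and 1 in both 24 h groups against 0 h. The joint test called 2 with library totals and 3 with DESeq2. Over all tested genes it passed 5368 with library totals and 8471 with DESeq2, against 5796 in the main fit. The cause of these differences was not tested.

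Changed signs against 0 h under limma voom were 0.094 for CH1 at ETH 3 h, 0.44 for CH1 and 0.057 for HCF107 at MJ 3 h, 0.27 for CH1 in both 3 h groups, 0.014 for CLPR1 at ETH 24 h, and 0.045 for CLPR1 and 0.076 for HCF107 in both 24 h groups. Library totals gave CLPR1 0.0091 at ETH 24 h, -0.045 at MJ 24 h and 0.055 at ETH 24 h against MJ 24 h, and DESeq2 -0.0019 at MJ 24 h. Without both first 3 h libraries, HCF107 had 0.027 at MJ 3 h and CH1 0.028 at ETH 24 h against ETH 3 h.

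Leaving out 1 library at a time gave 1 to 2 calls at MJ 3 h and in both 3 h groups, and 0 to 1 at MJ 24 h against MJ 3 h. The ranges for CH1 were -0.56 to 0.36 at ETH 3 h, -0.78 to 0.14 at ETH 24 h, -0.43 to 0.48 at MJ 3 h, -0.45 to 0.028 at ETH 24 h against ETH 3 h, -0.36 to 0.070 at ETH 3 h against MJ 3 h, -0.49 to 0.42 for both 3 h groups and -0.059 to 0.85 for both 24 h groups. For CLPR1 they were -0.16 to 0.038 at ETH 24 h, -0.075 to 0.14 at MJ 24 h, -0.079 to 0.20 at ETH 3 h against MJ 3 h, -0.28 to 0.0028 for the time courses and -0.12 to 0.089 for both 24 h groups. HCF107 ranged from -0.65 to -0.23 at ETH 3 h, -0.44 to -0.071 at ETH 24 h, -0.37 to 0.083 at MJ 3 h, -0.44 to 0.019 for the time courses and -0.19 to 0.19 for both 24 h groups, and CLPP5 from -0.086 to 0.17 at ETH 24 h against MJ 24 h.

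Same-numbered libraries correlated with r of -0.66 to 0.77 (median 0.12), with every r over 0.1 in 1 of 10 group pairs, and 7 of 15 libraries were closest to their own number, so the numbers were not taken as pairs. With the replicate block, CLPP5 had -0.95 at ETH 3 h and -0.73 at MJ 3 h, and no call of the 4 genes changed. Calls over all genes at ETH 3 h were 2144, against 1008 without 0 h replicate 3 and 3975 by limma voom. At ETH 24 h they were 393, against 83 to 182 without any 1 library, 58 in the test against a fold of 1.5, 259 with the replicate block, 684 without both first 3 h libraries, 1129 by DESeq2, 1175 with only the groups compared and 2765 by limma voom. Depth did not limit the values of the 4 genes, whose error came from the spread between libraries of a group, estimated over all 15.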
